A study of Mus musculus with 4 samples.

Results

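Transcripts of 6 clock output factors were examined in female Nkx2-3 knockout mice, in the mucus-secreting sublingual salivary gland: Dbp, Tef, Hlf, Nfil3, Bhlhe40 and Bhlhe41. The members were the rows of the deposited count table with exactly these 6 symbols, out of 24411 symbols in all. The set was chosen by the CPM of clock genes in earlier results of these data, which differed between libraries of one age, so the members' levels by library are a description and support nothing beyond themselves. RNA sequencing covered 2 libraries at 32 weeks (replicates 3 and 4) and 2 libraries at 8 weeks (replicates 1 and 2). All 4 came from Nkx2.3-/- mice on a C57BL/6J background and from whole frozen glands. A gland with intact Nkx2-3 was not analysed here, and the labels do not say which part of the gene was deleted, whether the libraries came from separate animals, or at what time of day glands were taken.

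Dbp, Tef and Hlf are the 3 PAR bZIP proteins, leucine-zipper activators that bind a shared DNA element called the D-box, and Nfil3 (also called E4BP4) is a leucine-zipper repressor that binds the same element. Bhlhe40 and Bhlhe41 (DEC1 and DEC2) are basic helix-loop-helix repressors that bind the E-box, the element through which the core clock pair Clock and Arntl (BMAL1) activates its targets. In mouse tissues with a running clock, Dbp and the Bhlhe genes are driven through E-boxes, while Nfil3, like Arntl, is driven by ROR receptors and silenced by Nr1d1 and Nr1d2 (REV-ERB), so activators and repressor peak at opposite times of day. Core clock transcripts are also known to cycle in mouse salivary gland.

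The promoter windows are shown because they hold, or lack, the elements through which these genes are known to be driven. RefSeq windows on GRCm38.p6 matched 5 of the 6 members, with 2 starts for Tef; Bhlhe40 had no entry. The 250 bases before each start were searched on both strands for the E-box CACGTG, the D-box as TTANGTAA or TTANGCAA, and a ROR element as TNGGTCA, which do not overlap one another in these windows. Capitals mark the matches, each sequence reads 5′ to 3′ on the gene's own strand, and the lines give Tef at chr15:81802423-81802672 (plus strand), Tef at chr15:81811164-81811413 (plus strand), Bhlhe41 at chr6:145865421-145865670 (minus strand), Dbp at chr7:45704997-45705246 (plus strand) and Nfil3 at chr13:52981040-52981289 (minus strand).
Tef, upstream start: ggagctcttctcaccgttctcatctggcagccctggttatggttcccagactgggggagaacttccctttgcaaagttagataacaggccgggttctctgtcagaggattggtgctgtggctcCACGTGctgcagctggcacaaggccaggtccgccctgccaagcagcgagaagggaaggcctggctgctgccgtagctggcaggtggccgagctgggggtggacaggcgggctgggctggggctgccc
Tef, downstream start: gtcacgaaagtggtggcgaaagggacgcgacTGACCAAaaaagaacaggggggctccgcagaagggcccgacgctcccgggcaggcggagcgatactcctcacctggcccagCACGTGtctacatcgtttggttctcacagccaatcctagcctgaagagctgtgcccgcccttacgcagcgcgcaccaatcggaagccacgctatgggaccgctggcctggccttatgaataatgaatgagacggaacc
Bhlhe41: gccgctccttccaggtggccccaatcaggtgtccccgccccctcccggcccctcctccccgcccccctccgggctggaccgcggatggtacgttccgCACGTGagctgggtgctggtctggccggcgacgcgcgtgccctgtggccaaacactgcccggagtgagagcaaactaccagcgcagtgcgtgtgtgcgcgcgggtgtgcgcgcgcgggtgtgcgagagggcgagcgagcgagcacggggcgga
Dbp: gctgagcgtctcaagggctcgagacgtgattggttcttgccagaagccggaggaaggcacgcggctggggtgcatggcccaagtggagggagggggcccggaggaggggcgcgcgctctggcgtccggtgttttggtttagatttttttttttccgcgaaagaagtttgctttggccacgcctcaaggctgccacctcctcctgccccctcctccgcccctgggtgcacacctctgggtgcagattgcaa
Nfil3: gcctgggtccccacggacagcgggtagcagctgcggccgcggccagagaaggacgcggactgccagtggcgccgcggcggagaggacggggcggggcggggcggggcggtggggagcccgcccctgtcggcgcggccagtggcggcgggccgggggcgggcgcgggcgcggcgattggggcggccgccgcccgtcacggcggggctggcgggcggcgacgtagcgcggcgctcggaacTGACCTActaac

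An E-box stood in both Tef windows, beginning 127 and 138 bases before the start, and in the Bhlhe41 window, 153 bases before it. A ROR element stood in the Nfil3 window, 12 bases before the start, as TGACCTA on the printed strand, and in the downstream Tef window, 219 bases before it, as TGACCAA. The Dbp and Hlf windows held none of the searched letters, and no member's window held the D-box. Of 32851 windows of this length, 6.02% held the E-box, 4.18% the D-box and 9.19% the ROR element. A match is a string of letters and not a shown binding site, and elements farther away, such as those inside a gene, lie outside these windows.

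Each library held 16484772 and 16111122 counts in 32-week replicates 3 and 4, against 14265485 and 12925869 counts in 8-week replicates 2 and 1. Levels are given as CPM, the count of a gene per total count scaled to a common size with TMM factors, where a count of 0 would allow up to 0.175 to 0.221 CPM by library. Nkx2-3 had 21 and 29 counts at 32 weeks and 28 and 31 counts at 8 weeks, and where in the gene these reads lie was not tested. For the tissue label, all 10 mucous and demilune acinar genes were detected, with a count above 0, in every library. No other gland was compared, so this cannot tell the sublingual gland from another salivary gland. Libraries of one age were not alike. At least 2-fold differences between 32-week replicates 3 and 4 were seen in 281 genes one way and 327 the other, of 12810 tested, and between 8-week replicates 2 and 1 in 565 and 726. In whole-gland RNA, fewer cells of a type and less RNA per cell cannot be told apart.

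**Figure D1:**
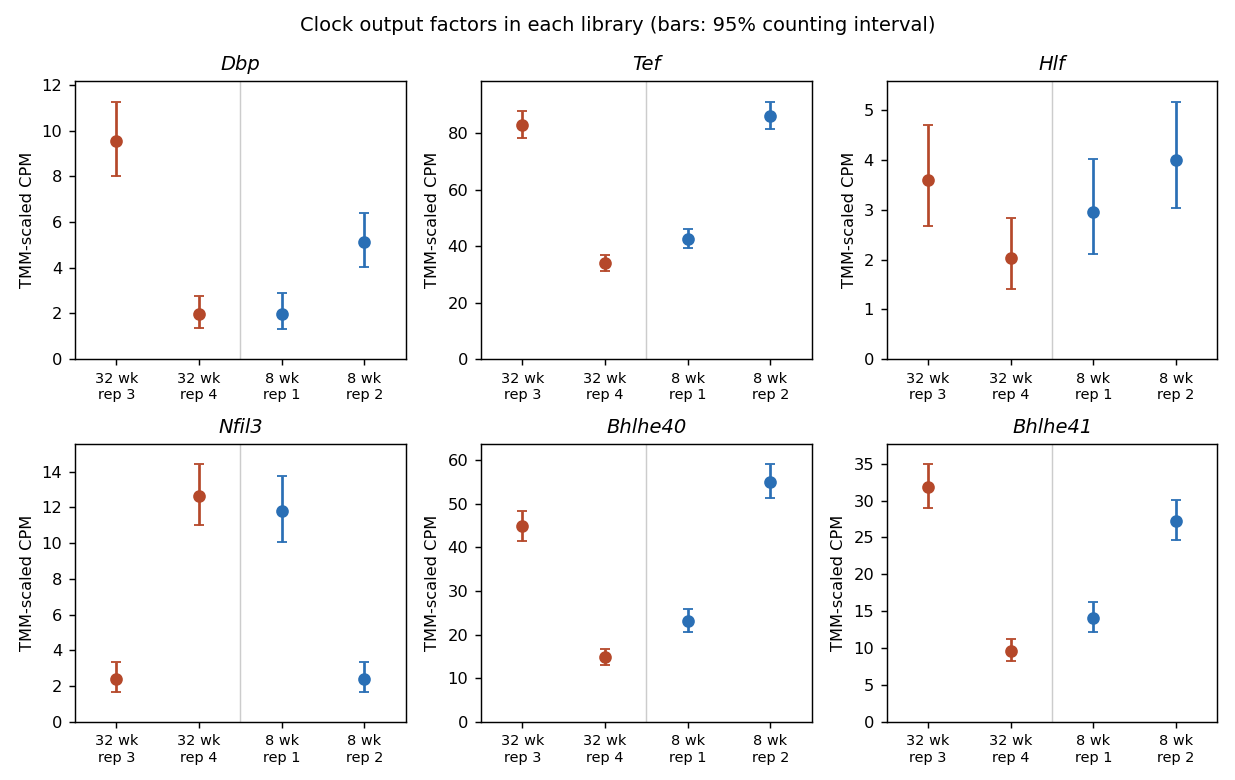
TMM-scaled CPM of each of the 6 factors (vertical axes from 0) in 32-week replicates 3 and 4 (red) and 8-week replicates 1 and 2 (blue); points are single libraries and bars are 95% counting intervals. Nfil3 stood at 12.6 CPM in 32-week replicate 4 and 11.8 CPM in 8-week replicate 1, the libraries in which the other 5 factors were lowest.

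The 3 activators were higher in 32-week replicate 3 and 8-week replicate 2 than in the other library of each age. Dbp, the activator whose transcript cycles most widely in mouse liver, stood at 9.54 and 1.98 CPM in 32-week replicates 3 and 4 (138 and 34 counts), against 5.11 and 1.99 CPM in 8-week replicates 2 and 1 (74 and 27 counts). The 32-week replicate 3 value was the highest of all, and those of 32-week replicate 4 and 8-week replicate 1 lay within each other's counting intervals (1.37 to 2.76 and 1.31 to 2.90 CPM). Between single libraries, replicate 3 was 4.82-fold above replicate 4 (95% counting interval 3.29 to 7.24) and replicate 2 was 2.56-fold above replicate 1 (1.63 to 4.15). These intervals, like all those between single libraries here, cover counting error only.

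Tef, which had the most counts of the 6, stood at 83.1 and 34.0 CPM in 32-week replicates 3 and 4, against 86.4 and 42.7 CPM in 8-week replicates 2 and 1. The high library of each age differed from the other by 2.45-fold at 32 weeks (2.21 to 2.70) and by 2.03-fold at 8 weeks (1.83 to 2.24). The ages overlapped, with 1 high and 1 low library at each.

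Hlf, the last of the activators, was low throughout and spread least. It stood at 3.59 and 2.04 CPM in 32-week replicates 3 and 4, against 4.00 and 2.95 CPM in 8-week replicates 2 and 1. The order of the libraries within an age was that of Dbp and Tef, but the 8-week fold of 1.36 had a counting interval that reached below 1 (0.891 to 2.08), so that difference was not detectable at this depth. At 32 weeks the fold was 1.77 (1.13 to 2.79).

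Nfil3, the repressor at the D-box, ran the other way. It stood at 2.42 and 12.6 CPM in 32-week replicates 3 and 4 (35 and 217 counts), against 2.42 and 11.8 CPM in 8-week replicates 2 and 1 (35 and 160 counts). It was thus high where Dbp and Tef were low, with a 5.22-fold difference at 32 weeks (replicate 4 over replicate 3, counting interval 3.64 to 7.68) and a 4.89-fold difference at 8 weeks (replicate 1 over replicate 2, 3.37 to 7.26). Over the 4 libraries its lowest and highest values were 5.22-fold apart, against 4.82-fold for Dbp, 3.72-fold for Bhlhe40, 3.32-fold for Bhlhe41, 2.54-fold for Tef and 1.97-fold for Hlf.

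Both E-box repressors followed the activators and not Nfil3. Bhlhe40, also known as a gene induced by low oxygen and by growth stimuli, stood at 44.9 and 14.8 CPM in 32-week replicates 3 and 4, against 55.1 and 23.2 CPM in 8-week replicates 2 and 1. Bhlhe41, its close relative, stood at 31.9 and 9.60 CPM in 32-week replicates 3 and 4, against 27.3 and 14.1 CPM in 8-week replicates 2 and 1. For each of them the high library of either age lay above both low ones. The folds between the libraries of one age were 3.02 and 3.32 at 32 weeks and 2.38 and 1.94 at 8 weeks, for Bhlhe40 and Bhlhe41 in that order.

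At 32 weeks, 4 of the 6 members were at least 2-fold higher in replicate 3 than in replicate 4, beside 2.19% of all genes tested, and 1 member was at least 2-fold lower, beside 2.55%. At 8 weeks, 3 members were at least 2-fold higher in replicate 2 than in replicate 1, beside 4.41% of genes, and 1 was lower, beside 5.67%. Dbp, Tef and Bhlhe40 were higher by that much in both comparisons, beside 0.71% of genes, and Nfil3 lower in both, beside 0.734%. The members were proposed with this difference between libraries in view, so nothing is read from these shares. With total counts in place of TMM, Tef at 8 weeks fell short of the 2-fold mark (1.96), and no member changed direction under any of the 4 scalings.

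**Figure D2:**
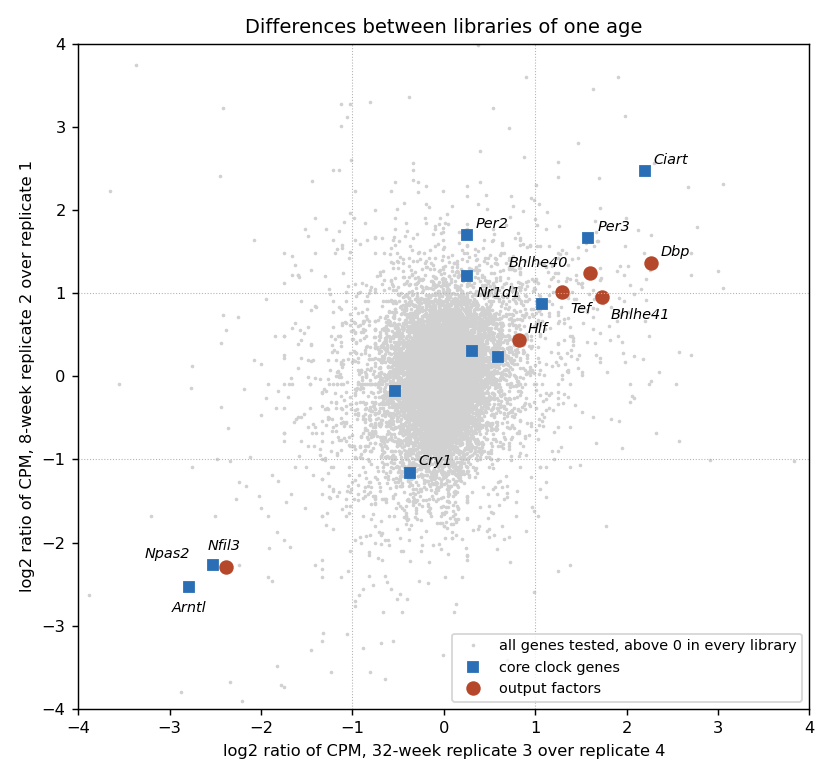
Log2 ratio of CPM between the 32-week libraries (replicate 3 over 4, horizontal) and the 8-week libraries (replicate 2 over 1, vertical) for 12805 genes above 0 in every library, 20 of which lie outside the axes; dotted lines mark 2-fold. Dbp, Tef, Hlf, Bhlhe40 and Bhlhe41 (red) lie to the upper right, and Nfil3 lies to the lower left beside the core clock genes (blue) Npas2 and Arntl.

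Per kilobase of the longest coding transcript, which allows levels of different genes to be compared, Tef ranked first and Hlf last of the 6 in every library. Tef stood at 18.9 and 7.72 CPM per kilobase in 32-week replicates 3 and 4, against 19.6 and 9.69 in 8-week replicates 2 and 1. Nfil3, at 1.19 and 6.23 CPM per kilobase in 32-week replicates 3 and 4, against 1.19 and 5.83 in 8-week replicates 2 and 1, changed place most: its rank was 5 in 32-week replicate 3 and in 8-week replicate 2, 2 in 32-week replicate 4 and 3 in 8-week replicate 1. Bhlhe40 stood at 14.4 and 4.76 CPM per kilobase at 32 weeks, against 17.7 and 7.44 at 8 weeks in the same order of libraries. The top of the order depended on the length used: over the union of all exons, which for Tef is 7865 bases against 4401, Bhlhe40 ranked above Tef in all 4 libraries and Nfil3 ranked first in 32-week replicate 4.

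**Figure D3:**
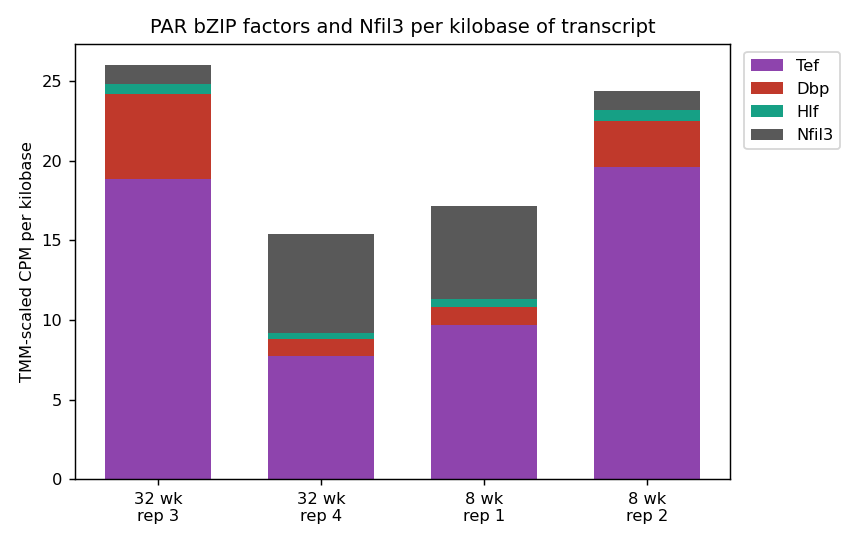
TMM-scaled CPM per kilobase of the longest coding transcript for Tef, Dbp, Hlf and Nfil3, stacked (vertical axis from 0), in each library. Nfil3 made up 4.59% and 40.4% of the bar in 32-week replicates 3 and 4, against 34.0% and 4.89% in 8-week replicates 1 and 2.

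The ratio of activators to repressor was high in 1 library of each age and low in the other. Counts per kilobase of Dbp, Tef and Hlf together were 20.8 and 1.47 times those of Nfil3 in 32-week replicates 3 and 4, against 19.4 and 1.94 times in 8-week replicates 2 and 1. The ratio needs no scaling for depth, and it was 14.1-fold higher in replicate 3 than in replicate 4 and 10.01-fold higher in replicate 2 than in replicate 1. Over the union of exons the same ratios were 12.02 and 0.851 at 32 weeks, against 11.2 and 1.12 at 8 weeks. The values of these ratios thus depend on the length used, while the order of the libraries was the same.

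Tef made up most of the activator sum, at 76.0% and 84.1% in 32-week replicates 3 and 4, against 84.7% and 85.6% in 8-week replicates 2 and 1. The sum itself was 24.8 and 9.18 CPM per kilobase in 32-week replicates 3 and 4, against 23.2 and 11.3 in 8-week replicates 2 and 1. Within each age it thus differed by less than the Nfil3 level below it. Singly, Dbp over Nfil3 had the widest range, at 4.47 and 0.177 in 32-week replicates 3 and 4, against 2.39 and 0.191 in 8-week replicates 2 and 1. Tef over Nfil3 stood at 15.8 and 1.24 at 32 weeks, against 16.5 and 1.66 at 8 weeks, in the same order of libraries. Hlf over Nfil3 stood at 0.524 and 0.0569 at 32 weeks, against 0.585 and 0.0882 at 8 weeks. In all 3 single ratios the same library of each age was the high one.

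Ratios between factors of the same direction spanned less than those to Nfil3. Dbp over Hlf had the widest span of them, 3.93-fold. Bhlhe40 over Bhlhe41 was 2.77 and 3.04 in 32-week replicates 3 and 4, against 3.98 and 3.24 in 8-week replicates 2 and 1, a span of 1.44-fold. Tef over Hlf spanned 1.60-fold and Dbp over Tef 2.46-fold over the 4 libraries. Dbp over Tef was 0.282 and 0.143 in 32-week replicates 3 and 4, against 0.146 and 0.115 in 8-week replicates 2 and 1, and so was highest in 32-week replicate 3.

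**Figure D4:**
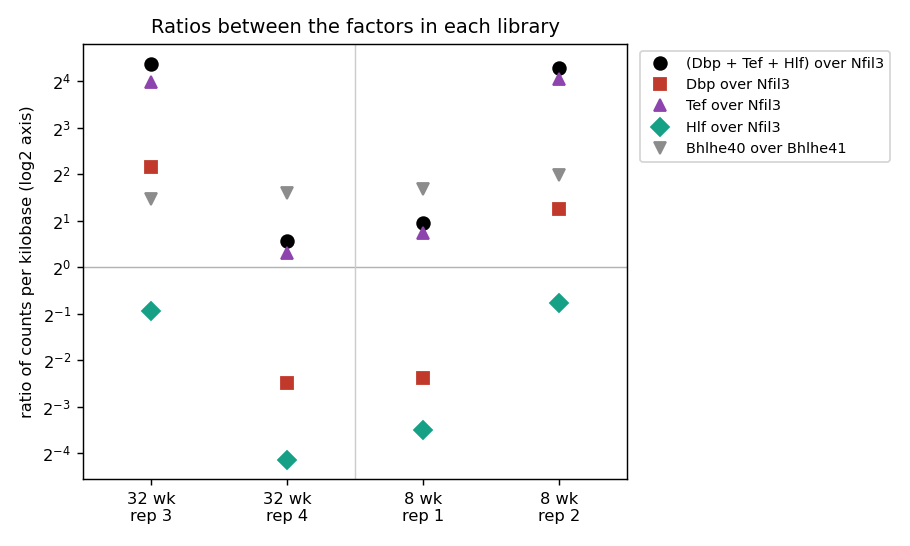
Ratios of counts per kilobase between factors in each library, on a log2 axis; the horizontal line marks equal levels. The ratio of summed activators to Nfil3 was 20.8 and 1.47 in 32-week replicates 3 and 4, against 1.94 and 19.4 in 8-week replicates 1 and 2, while that of Bhlhe40 to Bhlhe41 stayed between 2.77 and 3.98.

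By age, no member passed the test. In edgeR's quasi-likelihood test over all 12810 genes kept, 0 of the 6 members passed an adjusted p of 0.05, beside 0% of all genes, and their unadjusted p ranged from 0.373 to 0.995. None of the 6 had both libraries of one age above both of the other, beside 28.6% of genes. The count over all genes was also 0, with 174 genes at an unadjusted p under 0.05. DESeq2 called 3 genes and limma-voom 0, none of them members.

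Each age held a higher and a lower library of every member, and the intervals were wide. For Hlf at 8 weeks that difference between libraries was not detectable beyond counting error. Dbp averaged 5.76 ± 5.35 CPM at 32 weeks and 3.55 ± 2.20 CPM at 8 weeks (SD, n = 2 each), a log2 fold change of 0.68 with a 95% interval of -0.99 to 2.35 (edgeR adjusted p = 0.999). Nfil3 averaged 7.52 ± 7.21 CPM at 32 weeks and 7.11 ± 6.64 CPM at 8 weeks, a log2 fold change of 0.10 (-1.83 to 2.03). For both, the ages differed by less than the SD between libraries of either age or, for Dbp at 8 weeks, by about as much. The log2 fold changes of the others were -0.14 for Tef (-1.22 to 0.93), -0.32 for Hlf (-1.22 to 0.59), -0.40 for Bhlhe40 (-1.67 to 0.88) and -0.0037 for Bhlhe41 (-1.25 to 1.24). The median over the 6 was -0.07, beside -0.01 over all genes tested. With 1 library left out at a time, each of the 6 changed sign at least once and none passed: Dbp without 32-week replicate 3 (-0.84), the other 5 without 32-week replicate 4, and Tef, Nfil3, Bhlhe40 and Bhlhe41 also without 8-week replicate 2.

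The log2 ratio of summed activators to Nfil3 averaged 2.47 ± 2.70 at 32 weeks and 2.62 ± 2.35 at 8 weeks (SD, n = 2 each), a difference of -0.15. The two-sided exact permutation p was 1, where the smallest that 2 against 2 libraries can give is 0.333. Without 32-week replicate 4 the difference was 1.76 and without 8-week replicate 2 it was 1.51, so its sign rests on single libraries.

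**Figure D5:**
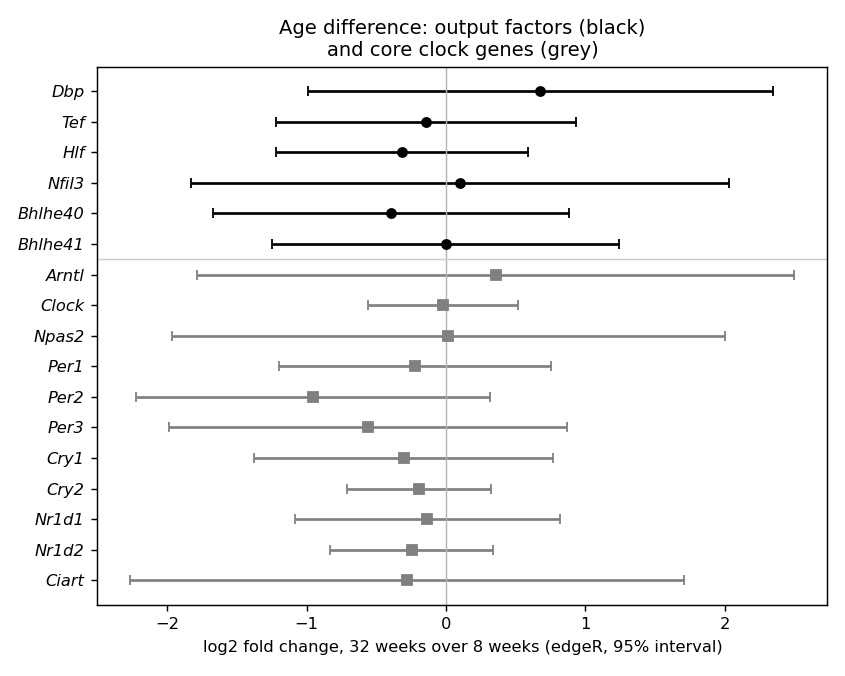
Log2 fold change, 32 weeks over 8 weeks, with 95% intervals from edgeR for the 6 output factors (black) and 11 core clock genes (grey). Every interval includes 0, and that of Nfil3 runs from -1.83 to 2.03.

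Core clock genes lay on both sides of the division between libraries. Of 3 core activators, none passed the age test (median log2 fold change 0.01), and 2, Arntl and Npas2, were at least 2-fold lower in 32-week replicate 3 than in replicate 4 and in 8-week replicate 2 than in replicate 1. Over all genes tested, 0.734% were lower by that much in both comparisons. The levels of clock genes guided the choice of the set, so nothing is read from this share. Arntl, the partner of Clock, stood at 1.80 and 12.4 CPM in 32-week replicates 3 and 4, against 1.66 and 9.59 CPM in 8-week replicates 2 and 1. Npas2, a stand-in for Clock, stood at 1.24 and 7.15 CPM at 32 weeks, against 1.45 and 7.01 CPM at 8 weeks in the same order. Clock itself differed less, at 21.5 and 31.1 CPM, against 25.1 and 28.3 CPM.

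Of 8 core repressors, none passed the age test. All 8 had negative log2 fold changes, beside 6622 of all 12810 genes tested (median -0.26, beside -0.01 for all genes). Ciart, an E-box repressor also called Chrono, stood at 4.01 and 0.872 CPM in 32-week replicates 3 and 4, against 4.90 and 0.886 CPM in 8-week replicates 2 and 1. Per3 stood at 47.6 and 15.9 CPM at 32 weeks, against 71.1 and 22.4 CPM at 8 weeks in the same order, and Nr1d1, the receptor that silences Nfil3 in other mouse tissues, at 139 and 66.2 CPM, against 146 and 79.8 CPM. These 3 lay on the side of Dbp, Tef and the Bhlhe genes in both ages. So did Nr1d2, Cry2, Per1 and Per2, by smaller folds at 32 weeks.

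Per1 and Per2 were less alike between the ages. Per2 stood at 2.21 and 1.86 CPM in 32-week replicates 3 and 4, against 6.01 and 1.84 CPM in 8-week replicates 2 and 1, and Per1 at 4.22 and 3.55 CPM, against 6.28 and 2.73 CPM. Each was highest in 8-week replicate 2 and within 2-fold between the 32-week libraries. The folds of the remaining repressors were smaller than those of Ciart and Per3. Nr1d2 stood at 67.9 and 44.8 CPM at 32 weeks, against 72.2 and 61.4 CPM at 8 weeks, and Cry2 at 14.7 and 11.9 CPM, against 16.8 and 13.6 CPM, in the same order of libraries. Cry1 went the way of Nfil3, at 1.80 and 2.33 CPM, against 1.59 and 3.54 CPM.

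Rora, a nuclear receptor that activates Nfil3 in other mouse tissues, stood at 41.5 and 40.9 CPM in 32-week replicates 3 and 4, against 36.7 and 43.9 CPM in 8-week replicates 2 and 1. It was not 2-fold apart between the libraries at either age. Of 9 clock kinases and ubiquitin ligases none was 2-fold apart within an age, with Gsk3b at 104 and 84.9 CPM, against 88.5 and 100.4 CPM, and Csnk2b at 63.1 and 56.4 CPM, against 54.1 and 49.7 CPM.

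Genes known or proposed as PAR bZIP or clock output targets were mostly within 2-fold between libraries of one age. Of 11 tested, none passed the age test (3 positive and 8 negative, median log2 fold change -0.17). In 32-week replicate 3, 1 of them, Usp2, was at least 2-fold higher than in replicate 4, beside 2.19% of all genes. Another 1 was at least 2-fold lower, beside 2.55%. Usp2 was 2.56-fold higher there, and 1.98-fold higher in 8-week replicate 2 than in replicate 1. At 8 weeks 1, Alas1, was at least 2-fold higher in replicate 2 and none was lower, beside 4.41% and 5.67% of all genes. Alas1, the first enzyme of haem synthesis, stood at 57.6 and 42.0 CPM in 32-week replicates 3 and 4, against 106 and 39.6 CPM in 8-week replicates 2 and 1, and Tspo, a mitochondrial outer membrane protein, at 56.4 and 64.5 CPM, against 42.2 and 46.0 CPM. Alas1 was thus high in 8-week replicate 2 alone, and Tspo was not 2-fold apart within either age.

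Among related factors and known inducers, no tested gene was 2-fold apart at 32 weeks, but every list held 1 or more at 8 weeks. Over all genes tested, 2.19% were at least 2-fold higher and 2.55% lower in 32-week replicate 3 than in replicate 4. At 8 weeks, 4.41% were higher and 5.67% lower in replicate 2 than in replicate 1. Of 5 tested C/EBP factors, leucine-zipper proteins with a related DNA element, none was 2-fold apart at 32 weeks. In 8-week replicate 2, 2 were lower. Cebpa was 1 of these, at 13.8 and 12.7 CPM, against 6.01 and 17.2 CPM in 8-week replicates 2 and 1. Cebpg was not, at 39.0 and 30.8 CPM, against 30.2 and 35.3 CPM in the same order. Of 8 tested HES, HEY and ID genes, relatives of the Bhlhe pair, none was 2-fold apart at 32 weeks. In 8-week replicate 2, 2 were higher, and the most abundant genes, Id2 and Hes1, were not among them. Id2 stood at 217 and 169 CPM, against 186 and 180 CPM, and Hes1 at 92.5 and 68.0 CPM, against 48.8 and 90.8 CPM. No tested gene of either list passed the age test.

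Hypoxia genes, which share an inducer with Bhlhe40, had no 2-fold difference at 32 weeks among 10 tested. They had 1 at 8 weeks, higher in replicate 2. The most abundant genes of the list, Pdk1 and Bnip3, were within 2-fold. Pdk1 stood at 53.4 and 45.3 CPM, against 42.1 and 44.4 CPM in 8-week replicates 2 and 1. Bnip3 stood at 34.3 and 25.6 CPM, against 42.7 and 31.4 CPM. Glucocorticoid response genes had no 2-fold difference at 32 weeks among 7, while at 8 weeks 1 was higher and 2 were lower in replicate 2. The most abundant of them, Klf9 and Tsc22d3, were within 2-fold. Klf9 stood at 74.0 and 78.6 CPM, against 60.8 and 84.3 CPM, and Tsc22d3 at 22.9 and 14.9 CPM, against 26.9 and 16.6 CPM. Immediate early genes had no 2-fold difference at 32 weeks among 8, while at 8 weeks 2 were higher in replicate 2. For 1 of these, Egr2, the replicate 1 value was 0.148 CPM, under the 0.221 CPM that a count of 0 would allow. The most abundant genes, Nr4a1 and Jun, were within 2-fold. Nr4a1 stood at 41.9 and 43.4 CPM, against 62.3 and 45.0 CPM, and Jun at 19.1 and 18.03 CPM, against 10.9 and 15.7 CPM. None of these 3 lists had a member past the age test, and their median log2 fold changes were -0.12, 0.07 and 0.07 in that order.

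The genes most like each member were sought by the root mean square difference of log2 CPM, centred on each gene's own mean, over the 4 libraries. This was done for the 5 members whose values spanned at least 1 on the log2 scale, which left out Hlf. With only 4 libraries, many genes can fall close to any pattern, and likeness says nothing of shared control. The closest genes to Nfil3 were Npas2 (0.08), Mcpt4, a mast cell protease (0.15), and Arntl (0.18). Mcpt4 was at or below 1.16 CPM in every library. In 32-week replicate 3 and 8-week replicate 2 it stood at 0.0691 and 0.0690 CPM, under the 0.207 CPM that a count of 0 would allow. Those to Tef were Cdca8, a mitotic chromosome protein (0.03), Usp2, a ubiquitin protease known as a clock output in mouse (0.03), and Cldn1, a tight junction protein (0.04). Cdca8 was at or below 1.73 CPM in every library. Usp2 stood at 20.0 and 7.79 CPM in 32-week replicates 3 and 4, against 19.5 and 9.89 CPM in 8-week replicates 2 and 1.

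Those to Bhlhe41 were Sox5 (0.07), Ntrk2, a neurotrophin receptor (0.08), and Hspb7 (0.09), and those to Bhlhe40 were Kirrel3 (0.09), Melk (0.09) and the histone gene Hist2h2be (0.12). Hspb7 and Melk were at or below 0.760 and 0.829 CPM in every library. In 32-week replicate 4 each stood at 0.116 CPM, under the 0.175 CPM that a count of 0 would allow. The closest genes to Dbp were Tspan6 (0.17), the abundant secretory gene Wfdc18 (0.19) and Mup6 (0.22), whose family of near-identical copies makes its count uncertain. Wfdc18 stood at 46121 and 9576 CPM in 32-week replicates 3 and 4, against 33514 and 10303 CPM in 8-week replicates 2 and 1 and so had the same order of libraries as Dbp within each age. Smgc, another abundant secretory transcript, ran the other way, at 41973 and 125863 CPM at 32 weeks, against 73277 and 142077 CPM at 8 weeks in the same order. Dcpp1, Dcpp2, Dcpp3, Bpifa2 and Muc19, also abundant secretory transcripts, were higher where Dbp was higher in both ages. Of these, Dcpp3 stood at 249002 and 90256 CPM at 32 weeks, against 178597 and 81956 CPM at 8 weeks in the same order. Among the members, Tef lay closest to Bhlhe41 (0.15) and to Bhlhe40 (0.19), and Nfil3 lay 1.45 to 2.04 from each other member.

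Other features of the libraries moved with these levels, and their part in them was not tested. The ribosomal RNA precursor Rn45s took 2.24% and 3.38% of counts in 32-week replicates 3 and 4, against 1.40% and 3.69% in 8-week replicates 2 and 1. Markers of T cells and NK cells, in whose development Nfil3 acts in mouse, were at or below 10.5 CPM in sum, with 7 and 9 of 9 detected and sums of 4.56 and 8.78 CPM in 32-week replicates 3 and 4, and 9 and 9 detected and sums of 4.07 and 10.5 CPM in 8-week replicates 2 and 1. Macrophage and dendritic cell markers, all 8 detected in every library, summed to 108 and 158 CPM at 32 weeks, against 88.6 and 137 CPM at 8 weeks in the same order. Both lists were thus lower where Nfil3 was lower.

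B cell and plasma cell markers summed to 587 and 881 CPM in 32-week replicates 3 and 4 (5 and 6 of 7 detected), against 124 and 1006 CPM in 8-week replicates 2 and 1 (6 and 7 detected), again lower with Nfil3. Adipocyte markers summed to 29.9 and 35.0 CPM (4 and 5 of 6 detected), against 24.6 and 60.4 CPM (4 and 5 detected). The mucous and demilune acinar markers summed to 524880 and 326782 CPM, against 433694 and 316377 CPM. That sum was higher where Dbp was higher, but the median gene of the list was not in both ages. It stood at 0.43 and 0.11 log2 from its mean over the libraries at 32 weeks, against -0.19 and -0.12 at 8 weeks in the same order.

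Duct markers, all 8 detected, summed to 2602 and 1664 CPM in 32-week replicates 3 and 4, against 4934 and 2359 CPM in 8-week replicates 2 and 1. Mast cell markers, 5 of 6 detected, summed to 15.8 and 12.04 CPM, against 24.5 and 14.1 CPM, with Ms4a2 at 0 in all libraries. Both sums were higher where Dbp was higher, but the median mast cell gene ran the other way. It stood at -0.24 and 0.46 log2 from its mean over the libraries in 32-week replicates 3 and 4, against -0.48 and 0.17 in 8-week replicates 2 and 1. The sums of the remaining lists did not run with the members in both ages. The median nerve gene, at 0.08 and 0.20 log2 from its mean at 32 weeks, against -0.20 and -0.03 at 8 weeks in the same order, was lower where Nfil3 was lower. Skeletal muscle markers, in a tissue where Bhlhe41 and Tef are also expressed, summed to 4.08 and 7.39 CPM, against 5.32 and 2.95 CPM, with Myh1 at 0. Schwann cell and nerve markers summed to 64.0 and 69.6 CPM, against 60.2 and 57.6 CPM, and endothelial markers to 80.7 and 121 CPM, against 88.8 and 70.5 CPM.

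The members lie on 5 chromosomes of NCBIM37, the assembly that mm9 names: Dbp on 7 (52960458 to 52965525), Tef on 15 (81632851 to 81657291), Hlf on 11 (90197849 to 90252231), Nfil3 on 13 (53062578 to 53076442), and Bhlhe40 (108610623 to 108616919) and Bhlhe41 (145806763 to 145814078) both on 6. Dbp, Tef and Bhlhe40 share bases with a gene on the opposite strand, and the counting is not stated to use strand, so reads there cannot be told apart. Sphk2, a sphingosine kinase that shares 491 exon bases with Dbp, stood at 15.3 and 19.4 CPM in 32-week replicates 3 and 4, against 14.3 and 19.3 CPM in 8-week replicates 2 and 1, the reverse of the order in Dbp. The noncoding 0610040F04Rik, which shares 118 exon bases with Bhlhe40, was at or below 0.148 CPM, and Gm17597, which shares 193 with Tef, was not analysed here.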

How the data were processed

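Whole sublingual glands of female Nkx2-3 knockout mice gave 4 RNA sequencing libraries, 2 from mice aged 32 weeks and 2 from mice aged 8 weeks. The authors used STAR and mm9, per the submitters' processing notes. STAR's version, the counting tool, its annotation and strand setting, and its handling of multi-mapping reads were not given in the sources used here. Raw whole-number counts by gene symbol make up the deposited table.

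From these counts, edgeR 4.0.16's quasi-likelihood test (R 4.3.3) was fitted over all 12810 genes kept by the default low-count filter, with TMM factors, age as the only term and Benjamini-Hochberg adjustment at 0.05. All 6 members passed the filter. The fold change divides 32 weeks by 8 weeks, and its 95% interval is the model's. Replicates are not stated to be separate animals, so p-values measure only the spread between these libraries, which may be technical. Folds between the libraries of one age use exact binomial intervals, and CPM values exact Poisson intervals. Per-kilobase levels use the longest protein-coding transcript in GENCODE vM1. Alternatives were RLE factors, total counts, the 10 most abundant genes left out, no filter, a filter of 1 CPM in 3 libraries or more, limma-voom (limma 3.58.1), DESeq2 1.42.0, each library left out, other lengths and other activator sums. The edgeR fit was tested on simulated data.

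The members, 10 gene lists and 10 marker lists were chosen with earlier results of these data known. Genes named were the members, every core clock gene, the 2 most abundant of each other list, and the 3 genes most like each member, except 1 gene that is not reported here; others, such as Nkx2-3, Rn45s and overlapping genes, are named as checks and were chosen after their values were seen.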

Additional observations from a re-analysis of the deposited data

How the results depend on the processing

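No member passed the age test under any of the 11 alternatives. Over all genes the count of 0 became 10 with total counts only, 7 with no low-count filter, 3 with DESeq2 and 6 to 285 with 1 library left out; a lone library of an age is then assumed to vary like the other age, and the cause was not tested. With 1 library left out, log2 fold changes ran from -0.84 to 1.51 for Dbp, -0.92 to 0.46 for Tef, -0.76 to 0.050 for Hlf, -1.55 to 1.66 for Nfil3, -1.39 to 0.36 for Bhlhe40 and -1.10 to 0.63 for Bhlhe41, each changing sign. Other alternatives changed the sign of Bhlhe41 alone, whose value was near 0: 0.0018 without the 10 most abundant genes, 0.00066 with no filter and 0.0084 with DESeq2. The activator to repressor difference of -0.15 ran from -2.06 to 1.76 with 1 library left out and was 0.40 with Dbp alone over Nfil3. No paired analysis was possible because the ages share no replicate numbers. After seeing the data, folds between libraries of one age were recomputed under 3 other scalings: with total counts those at 32 weeks were 2.01 for Tef, 2.49 for Bhlhe40 and 2.73 for Bhlhe41, below their counting intervals. Depth limits Dbp, Hlf and Nfil3, with as few as 27, 35 and 35 counts in a library.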
